A study of Mus musculus with 249 samples.

Results

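The Dlk1 to Dio3 imprinted domain lies near the distal end of mouse chromosome 12 and was followed here through genome architecture mapping (GAM), which reads how often pieces of the genome fall into the same thin slice of a nucleus. The members were the 40 kb windows from the one that holds the start of Dlk1 to the one that holds the end of Dio3, with Meg3 and Rtl1 between them. They make up 21 windows, chr12:110680001-111520000 in the mm9 build, or 840 kb, within an interval of 82 windows from 109.5 to 112.8 Mb and a table of 68162 windows. Imprinted genes are expressed from the copy inherited from only one parent. In this domain the protein-coding genes Dlk1, Rtl1 and Dio3 are expressed from the paternal copy, and the non-coding RNAs Meg3, Rian and Mirg, with the small RNAs they carry, from the maternal copy, under the control of a differentially methylated region between Dlk1 and Meg3. The domain is widely used as a marker of the developmental potential of mouse stem cells, since its non-coding RNAs are silenced in some pluripotent lines.

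The study collected 249 multiplex-GAM libraries from 46C mouse embryonic stem cells, a Sox1-GFP knock-in line made from E14tg2a and grown with serum and LIF, then for the last day before harvest in serum-free medium. For each library 4 profiles of different cells were cut from 220 nm cryosections into 1 tube, and the DNA was amplified over the whole genome and sequenced. By the study's methods not every cellular profile crosses the nucleus, so a library held fewer nuclear profiles than that on average. The libraries fell into 11 experiments and 20 groups. These were reagent volumes (protocols A, B and C; 10, 11 and 10 libraries), proteinase K (1 and 2 µl; 5 and 6), freezing after lysis incubation (frozen and unfrozen; 10 and 11), early or late freezing (12 and 11), PCR cycle number (20, 23 and 25 cycles; 4, 5 and 3), cresyl violet (stained and unstained; 16 and 10), amplification kit (large and small; 11 and 12), the unstained libraries of the propidium iodide (20), eosin (18) and SYBR Gold (10) tests, and the full collection (54). All groups share the cell line and its genotype, and the 2 parental copies cannot be told apart in any value below. Each library is a 0 or 1 per window (positive or not), so read depth is unknown, and a library held 3.23% to 48.2% of the autosomal windows (median 18.2%). Libraries are separate tubes of 1 cell line, and p-values over them measure the spread between tubes.

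The 4 genes that name the domain start in windows of 49.5% to 52.8% GC. The 120 bases before the annotated starts of Dlk1, Meg3 and Dio3 are shown so that the base composition at the gene starts can be set beside the GC content of their windows. They were read from the mm9 sequence, 5′ to 3′ on the strand of the gene, with CG dinucleotides in capitals.
Dlk1, chr12:110690913-110691032, plus strand: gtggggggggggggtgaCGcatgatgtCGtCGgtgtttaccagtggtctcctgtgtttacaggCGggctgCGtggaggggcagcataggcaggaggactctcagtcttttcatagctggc
Meg3, chr12:110779091-110779210, plus strand: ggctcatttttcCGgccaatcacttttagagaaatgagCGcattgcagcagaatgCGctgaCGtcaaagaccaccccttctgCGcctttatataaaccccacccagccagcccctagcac
Dio3, chr12:111517158-111517277, plus strand: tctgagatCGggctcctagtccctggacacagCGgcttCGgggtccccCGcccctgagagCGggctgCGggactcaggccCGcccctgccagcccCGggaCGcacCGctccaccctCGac
The Dio3 stretch held 11 CG dinucleotides and 74.2% G or C, against 5 in Dlk1 (60.8%) and 5 in Meg3 (52.5%). Over 760 protein-coding and lincRNA genes of chromosome 12, the median was 7, so Dio3 sat at the 66.8th percentile and Dlk1 and Meg3 at the 36.2nd.

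The annotation places 88 genes in the domain, of which 57 are miRNA genes, 23 snoRNA genes, 5 lincRNAs and 3 protein-coding genes. Apart from those in the Dio3 window they lie in its first 8 windows (chr12:110680001-111000000), and a stretch of 525.9 kb before Dio3os carries no annotated gene. Of the 57 miRNA genes, 48 matched the RefSeq table (GRCm38.p6) by name and gave 89 mature miRNAs with 84 distinct seeds (bases 2 to 8), of which 5 were shared by a pair of miRNAs. The 5 pairs that share a seed are shown to make clear what the gene-rich windows encode, with the seed in capitals.
mmu-miR-379-5p: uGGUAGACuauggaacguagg
mmu-miR-1193-5p: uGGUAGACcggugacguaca
mmu-miR-379-3p: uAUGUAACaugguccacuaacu
mmu-miR-411-3p: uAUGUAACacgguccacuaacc
mmu-miR-758-5p: uGGUUGACcagagagcacacg
mmu-miR-1197-5p: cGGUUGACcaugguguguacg
mmu-miR-370-5p: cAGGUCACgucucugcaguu
mmu-miR-1193-3p: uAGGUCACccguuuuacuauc
mmu-miR-410-5p: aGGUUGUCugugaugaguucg
mmu-miR-494-5p: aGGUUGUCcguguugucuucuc
The genes of the first 3 pairs lie in 1 window, chr12:110920001-110960000, and each of the other pairs has 1 gene there and 1 in another window, chr12:110840001-110880000 for miR-370 and chr12:110960001-111000000 for miR-410. The shared window was positive in 50 libraries, among the lowest values of the domain.

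The windows that hold the starts of the 4 genes were captured almost equally often. Dlk1, a membrane protein of the Delta-like family that restrains adipocyte differentiation (ENSMUSG00000040856, chr12:110691033-110701546, plus strand), started in a window positive in 60 of 249 libraries, or 24.1% (exact binomial 95% interval 18.9% to 29.9%). Meg3, a maternally expressed long non-coding RNA (ENSMUSG00000021268, chr12:110779211-110809936, plus strand), started in a window positive in 59 libraries, or 23.7% (18.6% to 29.5%). Rtl1, a retrotransposon-derived gene needed in the placenta (ENSMUSG00000085925, chr12:110827404-110838540, minus strand), and Dio3, the deiodinase that inactivates thyroid hormone (ENSMUSG00000075707, chr12:111517278-111519307, plus strand), also started in windows positive in 59 libraries each. The shares thus lay far within each other's intervals, which cover counting error only. Rian, the host of a snoRNA cluster, started in a window positive in 59 libraries and Mirg, a miRNA host transcript, in one positive in 60.

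Within the domain the number of libraries ranged from 49 to 66, with a median of 59 and a mean of 56.8 ± 5.37 (SD over 21 windows). Both extremes lay next to each other in the gene-free stretch, the least often captured at chr12:111120001-111160000 (49 libraries) and the most often captured at chr12:111160001-111200000 (66 libraries). Across the snoRNA and miRNA clusters the values fell from 59 in the window of the Rian start to 53 and 50 in the next windows, and stood at 60 in the window of Mirg. The Rian window with 53 libraries was the most AT-rich of the domain, at 37.5% GC, while the Dio3 window was the most GC-rich at 52.8%. All 21 windows were above the minimum of 25 libraries set for the linkage values.

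The windows of neighbouring genes spread around the same values. Before Dlk1, 9 of 11 listed genes started in the interval, in 8 windows positive in 48 to 76 libraries (median 61). Begain, next to Dlk1 on that side, was at the low end with 48 libraries, and Slc25a29, a mitochondrial carrier, at the high end with 76. Yy1, a zinc-finger factor that binds DNA at many promoters, had 73. After Dio3, all 13 listed genes started in the interval, in 12 windows positive in 53 to 66 libraries (median 58), with Mok, annotated as Stk30, and Wdr20a at 66 each. Windows that passed the minimum had a median of 50 libraries on chromosome 12 and on all autosomes, where the middle 80% ranged from 39 to 62.

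**Figure D1:**
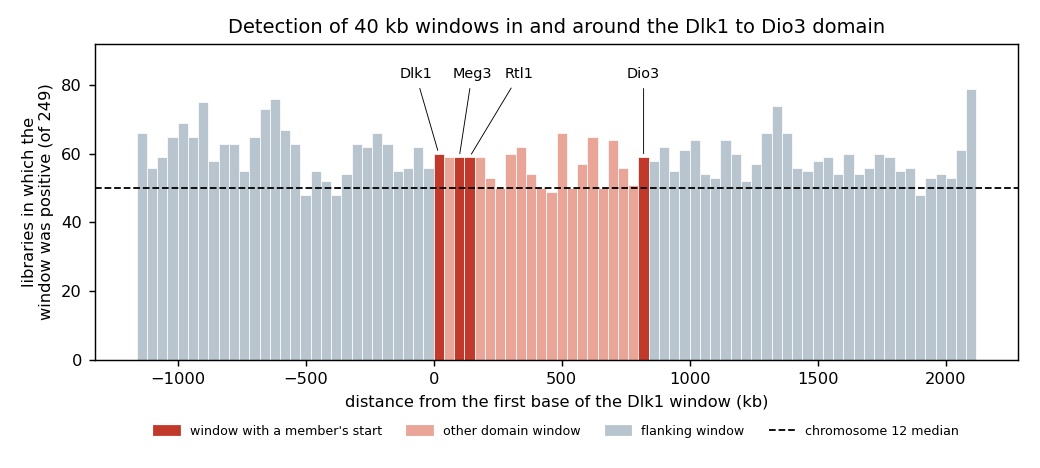
Number of the 249 libraries in which each 40 kb window was positive, against distance from the start of the Dlk1 window in kb. Dark red bars hold the starts of Dlk1 (60), Meg3, Rtl1 and Dio3 (59 each), light red bars are the other domain windows, grey bars flank them, and the dashed line is the chromosome 12 median of 50.

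Taken per library, an average of 22.8% ± 28.3 (SD, 249 libraries) of the domain's windows was positive, against 19.4% of all other autosomal windows. The difference was 3.42 percentage points ± 1.73 (SE), and did not pass a sign-flip permutation test adjusted over 2835 autosomal blocks of 21 windows (two-sided p = 0.0496, adjusted p = 0.176). The domain was above the rest of its library in 103 libraries and below it in 146, so the mean rested on fewer libraries with much of the domain. Among the blocks it ranked at the 82.5th percentile, and 13.2% of blocks were called, 225 higher and 148 lower. The domain's windows averaged 46.8% GC, against 41.9% on the autosomes. Against windows of the same GC content the difference was 0.92 percentage points ± 1.72 (same test, adjusted p = 0.870). That comparison also left out windows that were never positive. Without regard to GC, but with only windows positive in at least 25 libraries, the difference was 2.55 ± 1.73 (same test, adjusted p = 0.348). The part of GC in the difference was not tested.

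How much of the domain a library held varied widely. No domain window was positive in 111 libraries, 1 to 5 in 52, 6 to 10 in 40, 11 to 15 in 30, 16 to 20 in 13, and all 21 in 3 libraries. Of the 138 libraries with any domain window, the mean was 8.64 positive windows in 3.01 separate runs, at the 87.0th and 86.0th percentiles of the autosomal blocks. In only 23 of these libraries did the positive windows, however few, form 1 unbroken run. The median over the blocks was 32, which put the domain at the 6.44th percentile. Libraries with 1 positive window, of which there were 12, count as 1 run, so this is not a count of libraries with the whole domain. Library coverage moved with these counts: it was 16.6% of autosomal windows at the median (3.23% to 38.1%) in libraries without the domain and 23.2% (16.5% to 35.5%) in the 16 libraries with more than 15 of its windows. Its part in the counts was not tested.

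**Figure D2:**
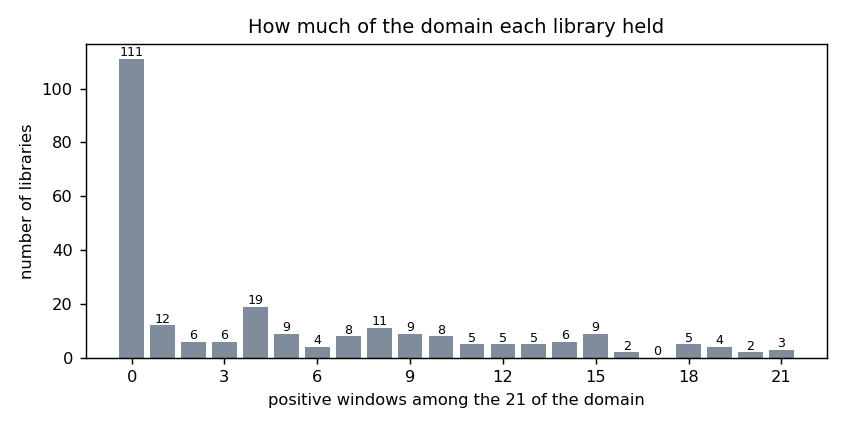
Number of libraries (vertical axis) by how many of the 21 domain windows were positive in them (horizontal axis). The bar at 0 stands for 111 libraries, and the 3 libraries at the right end held all 21 windows.

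The 4 genes appeared in 15 combinations. None of their windows was positive in 144 libraries and all 4 in 18, while 12 libraries held Dlk1, Meg3 and Rtl1 without Dio3. Dio3 was the gene most often found on its own, in 16 libraries, against 6 each for Dlk1 and Rtl1 and 4 for Meg3. The libraries with all 4 genes had a median coverage of 20.6% (13.4% to 35.5%) and those with none 17.2% (3.23% to 38.1%).

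Capture of the domain was then compared across the experiments, which differ in protocol and in collection and cannot be separated from either. The mean share of domain windows ran from 13.9% ± 18.7 (SD, 11 libraries) in the proteinase K experiment to 27.6% ± 34.1 (10 libraries) in the SYBR Gold test, with 21.7% ± 29.8 in the 54 libraries of the full collection. For these shares the spread within experiments was larger than that between them (F = 0.34, permutation p = 0.971). The main test took the difference between the domain and the rest of each library. Its means ran from -2.47 percentage points in the propidium iodide test to 10.4 in the SYBR Gold test. There too the spread within experiments was larger (F = 0.46, permutation p = 0.916, adjusted p = 0.981 over 2835 blocks). No block was called in this comparison (0%), and 190 had an unadjusted p below 0.05. The counts for single genes rest on 1 window and few libraries each. Dlk1 was positive in 7 of 18 libraries of the eosin test (38.9%) and in 3 of 20 of the propidium iodide test (15.0%). Meg3 ranged from 1 of 11 libraries with proteinase K (9.09%) to 6 of 18 in the eosin test (33.3%). Rtl1 ranged from 3 of 26 in the cresyl violet experiment (11.5%) to 7 of 18 in the eosin test (38.9%), and Dio3 from 1 of 11 with proteinase K (9.09%) to 8 of 26 in the cresyl violet experiment (30.8%). The full collection held Dio3 in 16 of 54 libraries (29.6%) and Dlk1 in 10 (18.5%).

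Protocols were compared within experiments, as the difference between the domain and the other autosomal windows of the same library. None of 11 contrasts passed the adjustment (smallest permutation p = 0.162, adjusted p = 0.947), nor was any p below 0.05 before it. Protocol A of the reagent volumes stood at a mean of 9.64 percentage points against the rest of its libraries and protocol C at -4.77, a difference of 14.4 points (permutation p = 0.162). The large amplification kit exceeded the small kit by 11.8 points (permutation p = 0.351) and cresyl violet staining exceeded no staining by 10.4 (permutation p = 0.417). Libraries amplified for 25 cycles exceeded those of 20 cycles by 11.8 points (exact permutation p = 0.686, 3 and 4 libraries), where no p below 0.0571 is possible.

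The main question was whether the domain folds as a unit, so linkage between windows was measured as the normalized linkage disequilibrium D′, which is 0 when 2 windows fall into libraries independently and 1 when the rarer one is never found without the other. The 4 genes were found together well above independence, at D′ values within 1 SE of the chromosome 12 mean for their distance. Dlk1 and Meg3, 80 kb apart, were both positive in 42 libraries where 14.2 would be expected by independence (D′ = 0.620 ± 0.073, jackknife SE over libraries). The chromosome 12 mean at that distance was 0.549, and the pair stood at its 79.5th percentile (z = 0.81, the distance from that mean in SDs of pairs at the same distance). Meg3 and Rtl1, in neighbouring windows, shared 41 libraries (D′ = 0.600 ± 0.096, chromosome 12 mean 0.619, 38.8th percentile). Dlk1 and Rtl1, 120 kb apart and both paternally expressed, shared 36 libraries (D′ = 0.486 ± 0.076, mean 0.514, 35.9th percentile). So the closest pairs lay on both sides of the mean for their distance.

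Dio3 lies far from the other genes. It shared 31 libraries with Dlk1 at 800 kb (D′ = 0.375 ± 0.076, chromosome 12 mean 0.345, 63.8th percentile) and 31 with Meg3 at 720 kb (D′ = 0.378 ± 0.094, mean 0.356, 60.9th percentile). With Rtl1 at 680 kb it shared 28 (D′ = 0.311 ± 0.091, mean 0.361, 29.8th percentile), the lowest of the 6 pairs against its distance. Of the 3 pairs among the paternally expressed genes, Dlk1 with Dio3 was above the mean and Dlk1 with Rtl1 and Rtl1 with Dio3 below. Each lay within 1 SE of the mean, so these signs give no direction. By Fisher's exact test over libraries with Benjamini-Hochberg adjustment over all chromosome 12 pairs up to 4 Mb, all 6 pairs were called, with adjusted p from 1.77e-17 (Dlk1 and Meg3) to 1.3e-05 (Rtl1 and Dio3). Of all chromosome 12 pairs at these distances 99.3% were called too, so the calls say nothing particular to the domain. A test stratified by experiment, chosen after seeing the data, and one stratified by coverage also called all 6, beside 99.2% and 98.0% of chromosome 12 pairs at these distances.

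**Figure D3:**
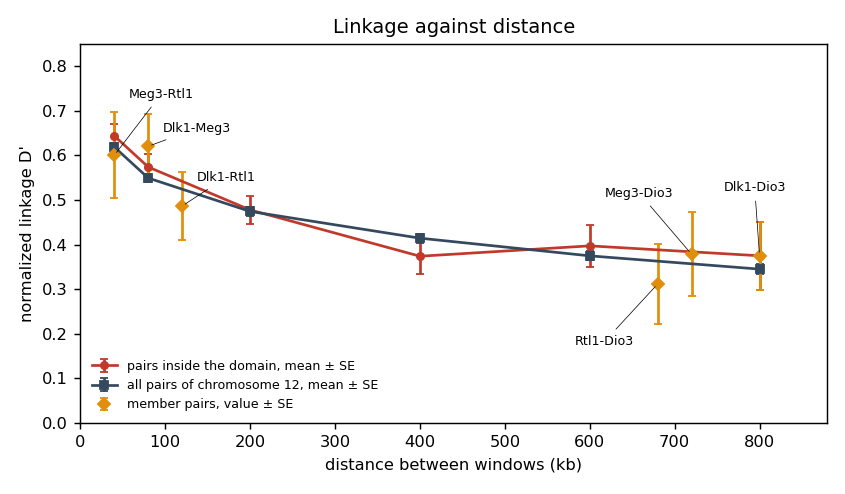
D′ against distance in kb for pairs of windows inside the domain (red circles, mean ± SE over libraries), all pairs of chromosome 12 (dark squares, mean ± SE) and the 6 pairs of Dlk1, Meg3, Rtl1 and Dio3 (orange diamonds, value ± SE). The error bars of domain and chromosome overlap at every distance drawn, from 0.644 against 0.619 at 40 kb to 0.375 against 0.345 at 800 kb.

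Over all its pairs at least 80 kb apart, the domain had a mean D′ of 0.439 ± 0.032 (SE), against 0.448 for chromosome 12 pairs at the same distances. The difference was -0.0093 ± 0.030 (95% interval -0.069 to 0.050, jackknife normal test, adjusted p = 0.937 over 2814 blocks). The domain stood at the 39.3rd percentile of the autosomal blocks and at the 34.6th of 136 blocks of chromosome 12. Of the blocks 1.17% were called, 15 more and 18 less linked than their chromosome, and 320 had an unadjusted p below 0.05. The middle 80% of blocks ranged from -0.049 to 0.048, so the domain's 95% interval was wider than that range. Of its 210 pairs, adjacent windows included, 109 were above the chromosome 12 mean for their distance, and the median percentile was 50.9. All 210 were called by Fisher's test, beside 99.4% of chromosome 12 pairs up to 800 kb apart and 85.2% up to 4 Mb.

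Values within single experiments, computed after seeing the data, scattered on both sides of 0. For these, any window positive in the experiment entered, without the minimum of 25 libraries. They were thus not made in the same way as the pooled value of -0.0093. The proteinase K value rests on 20 of the 21 windows. The difference from chromosome 12 was 0.096 in the full collection (54 libraries), 0.146 in the early freezing experiment (23), 0.145 in the amplification kit experiment (23), 0.139 in freezing after incubation (21), 0.218 in the SYBR Gold test (10) and 0.031 in the cresyl violet experiment (26). It was -0.061 in the propidium iodide test (20), -0.141 in the reagent volumes experiment (31), -0.150 in the eosin test (18), -0.146 in the PCR cycles experiment (12) and -0.430 in the proteinase K experiment (11). Thus 6 experiments were above 0 and 5 below, and no test was made at these sizes.

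The 95% intervals of the differences between the domain's parts and chromosome 12 all included 0. The 8 windows of the gene-rich part had a mean D′ of 0.469 ± 0.043, a difference from chromosome 12 of -0.037 (95% interval -0.117 to 0.043). The 12 windows of the gene-free stretch had 0.496 ± 0.036 (difference 0.012, -0.055 to 0.080), and pairs between both parts 0.395 ± 0.037 (difference -0.025, -0.095 to 0.044). Dio3 was linked to the gene-free stretch before it at 0.528 ± 0.045, a difference of 0.072 (-0.015 to 0.159), and to the gene-rich part at 0.360 ± 0.057 (difference -0.0050, -0.114 to 0.104). The value of Dio3 with the stretch before it was the furthest from 0 of these 5. Rian was above its distance mean with Dlk1 (z = 0.67) and Meg3 (z = 1.09) and below it with Rtl1 in the neighbouring window (z = -1.33). Mirg was above it with Meg3 (z = 0.60) and Dio3 (z = 0.33) and below it with Dlk1 (z = -1.11) and Rtl1 (z = -0.55).

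Of the 3 lowest pairs of the domain for their distance, 2 joined the window of the miRNA cluster to the gene-free stretch and 1 lay within that stretch. The window chr12:110920001-110960000, which holds most of the miRNAs printed above, shared 23 libraries with chr12:111040001-111080000 (D′ = 0.310, z = -2.31) and 22 with chr12:111080001-111120000 (D′ = 0.299, z = -2.12). Windows chr12:111040001-111080000 and chr12:111440001-111480000, both in the gene-free stretch, shared 19 (D′ = 0.199, z = -2.29). Of the 3 highest pairs, 2 lay within the same stretch and 1 joined it to the Dio3 window. The stretch makes up 12 of the 21 windows, so most pairs of the domain involve it. Of 190 domain pairs at least 80 kb apart, 55 lay within it, 95 joined it to the gene-rich part and 11 to Dio3. These counts of extremes therefore say nothing particular to the stretch. Windows chr12:111080001-111120000 and chr12:111160001-111200000 shared 40 libraries (D′ = 0.728, z = 2.04), chr12:111200001-111240000 and chr12:111360001-111400000 shared 38 (D′ = 0.677, z = 2.03), and chr12:111280001-111320000 shared 44 with the Dio3 window (D′ = 0.656, z = 1.93). These were picked as the ends of the range of 210 pairs and carry no test of their own.

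**Figure D4:**
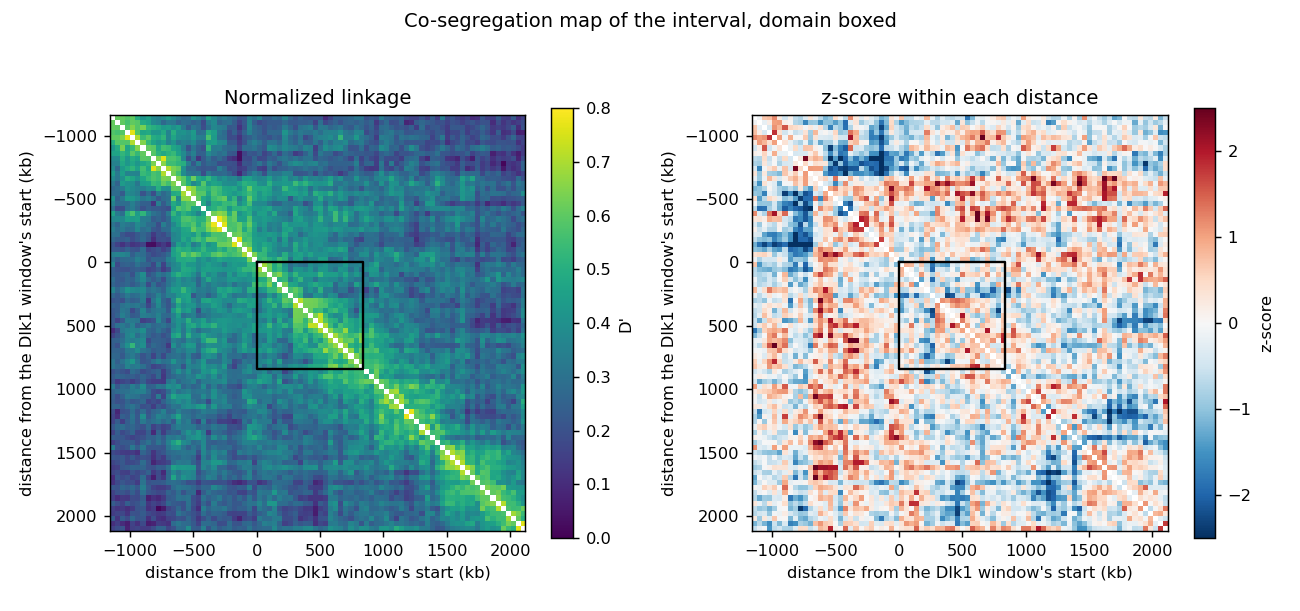
Maps of D′ (left) and of its z-score within each distance over chromosome 12 (right) for the 82 windows of the interval, axes in kb from the start of the Dlk1 window, with the domain boxed. Inside the box the z-scores run from -2.31 to 2.04 with a mean of -0.058, and the blue and red blocks of the right map lie mostly outside it.

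The 3 partner windows with the highest z-scores between 200 kb and 4 Mb, inside or outside the domain, differed between the genes, except for one. The window chr12:112560001-112600000 in Cdc42bpb, a kinase gene, was among the top 3 of both Meg3 (27 shared libraries, D′ = 0.427, z = 1.84, 1800 kb) and Rtl1 (27 shared, z = 1.83), whose own windows are neighbours. The first partner of Rtl1 was chr12:114120001-114160000 (Jag2, a Notch ligand; D′ = 0.385 ± 0.086, z = 2.04, 3320 kb). Dio3 had both top partners in the gene-free stretch, chr12:111280001-111320000 and chr12:111240001-111280000 (z = 1.93 and 1.82), and the next at chr12:110240001-110280000 with Wdr25 and Begain (z = 1.65, 1240 kb). For Dlk1 the first was chr12:107880001-107920000 (z = 1.72, 2800 kb), followed by chr12:111600001-111640000 just past Dio3 (z = 1.61, 920 kb). These are the tops of lists and their order was not tested.

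Linkage of the domain's genes with their neighbours lay on both sides of the distance mean. Dio3 was above the distance mean with 7 of the 8 windows of listed genes before Dlk1 (median z = 0.35) and with 5 of 12 after itself (median -0.04). Dlk1 was above it with 4 of 8 before it (median -0.35) and 10 of 12 after Dio3 (median 0.43). For Meg3 the counts were 4 of 8 and 8 of 12, and for Rtl1 5 of 8 and 7 of 12. Among single genes, Rtl1 with Amn (z = 1.82), Meg3 with Slc25a29 (z = 1.68) and Dlk1 with Mok (z = 1.38) were the highest. Dlk1 with Degs2 was the lowest (D′ = 0.162, z = -1.97, 760 kb). Dlk1 with Traf3 (D′ = 0.122) was the 1 pair of these lists not called by Fisher's test (adjusted p = 0.067). Of all chromosome 12 pairs at the distances of Dlk1 to the genes after Dio3, 92.4% were called, and 91.1% to 98.5% at those of the other lists, so these calls too say nothing particular to the domain.

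The Igf2, H19 and Kcnq1 domain on chromosome 7, another imprinted cluster, was set beside it as 22 windows at chr7:149760001-150640000. Its D′ exceeded the chromosome 7 pairs of equal distance by 0.035 ± 0.030 (SE). The value of the Dlk1 to Dio3 domain minus that of this domain was -0.045 ± 0.042, with a 95% interval of -0.127 to 0.037 that includes 0.

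The last question was whether the domain has borders of its own. The insulation score of an edge between windows is the mean D′ across it, in a square of 10 by 10 windows (400 kb a side), and low scores mark borders between topologically associating domains. Neither end of the imprinted domain had a low score. At the edge before the Dlk1 window it was 0.409 ± 0.035 against a chromosome 12 mean of 0.423, a difference of -0.013 ± 0.033 (95% interval -0.079 to 0.052, adjusted p = 0.922 by the jackknife normal test over 2786 edges, 37.1st percentile). At the edge after the Dio3 window it was 0.426 ± 0.036, a difference of 0.0039 ± 0.035 (-0.064 to 0.072, adjusted p = 0.981, 52.4th percentile). Of the edges 1.65% were called, 25 below and 21 above the mean. The sign at the Dlk1 side turned with squares of 15 or 20 windows, and so did the sign at the Dio3 side.

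The deepest minima of the interval lay outside the imprinted genes, with the domain between them. One was at the edge at 110080000, 600 kb before the Dlk1 window, where the flanking windows hold Yy1, Slc25a29, Slc25a47 and Wars. Its score was 0.332 ± 0.038 and its prominence 2.95 SD of the chromosome's scores. The other was at 112160000, 640 kb after the Dio3 window, in windows of Cinp and Tecpr2, with a score of 0.330 ± 0.041 and a prominence of 4.17 SD, the 9th highest of 125 minima on the chromosome. They stood at the 2.76th and 2.58th percentiles of all edges. Their differences from the mean, -0.091 ± 0.037 and -0.092 ± 0.039, did not pass the adjustment (adjusted p = 0.207 and 0.225). The other 3 minima were shallow, at 111200000 inside the gene-free stretch (0.73 SD), 111640000 just past Dio3 (0.52 SD) and 112640000 at Cdc42bpb (0.55 SD).

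Leaving out each of the 11 experiments in turn, which was examined after seeing the data, met the minimum near Yy1 and Slc25a29 again within 1 window in 10 of 11 settings and that near Cinp and Tecpr2 in 11 of 11. Of the shallow minima, that inside the domain was met in 3, that just past Dio3 in 4 and that at Cdc42bpb in 9. The score at 110080000 stayed between -0.140 and -0.079 from the mean and that at 112160000 between -0.116 and -0.073 in these settings. Neither passed the adjustment in any of the 11. Each setting kept most of the libraries in which the minima were picked, so meeting them again was likely beforehand and is no independent support. With squares of 15 or 20 windows the interval held 2 minima. Over squares of 6, 15 and 20 windows, the minimum near Yy1 and Slc25a29 was met within 2 windows with all 3, and that near Cinp and Tecpr2, the more prominent, with 2 of 3.

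**Figure D5:**
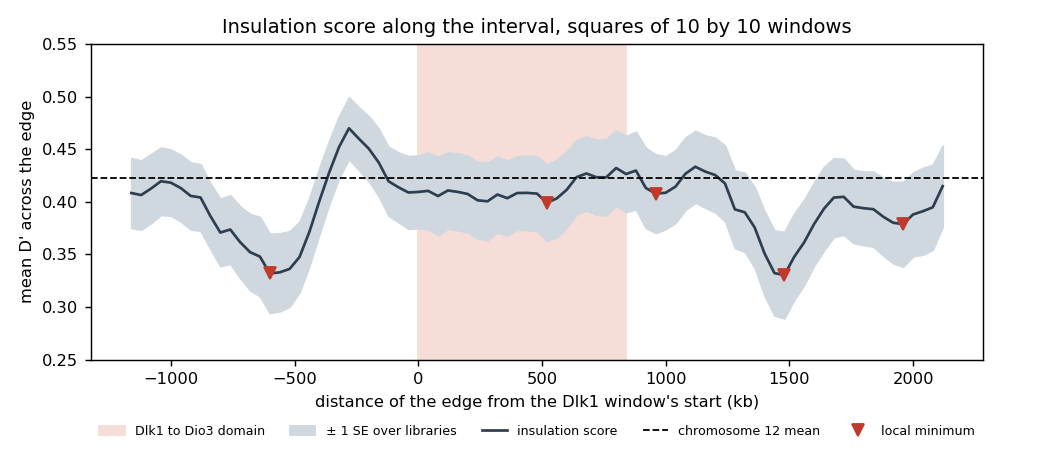
Insulation score (mean D′ across each edge, squares of 10 by 10 windows) against distance of the edge from the start of the Dlk1 window in kb, with ± 1 SE over libraries in grey, the chromosome 12 mean of 0.423 dashed, the domain shaded and local minima as triangles. The lowest points, 0.332 and 0.330, lie 600 kb before the domain and 640 kb after it.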

How the data were processed

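The deposited table holds presence calls, a 0 or 1 for each 40 kb window and library, and no counts. According to the methods and the submitters' processing notes, the authors aligned reads to mm9 with Bowtie2 (2.1), removed duplicates, called a window positive at a fixed threshold of 4 reads and kept libraries that passed their quality control. Members and gene lists were chosen with earlier results of these data known, and named genes were the 4 members, listed neighbours, top 3 partners, extreme windows and insulation minima.

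D′ and insulation squares of 10 windows follow the methods, and the minimum of 25 libraries per window was chosen here. Errors of D′ are delete-one jackknife SEs over libraries. Detection was tested with 100000 sign flips, experiments with 10000 permutations of F and contrasts by permutation. Blocks are runs of 21 windows tiling the autosomes. All p-values were adjusted by Benjamini-Hochberg (threshold 0.05). A minimum needed a prominence of 0.5 SD. The procedures were tested on simulated data. Genes come from the mm9 annotation, whose genome matched the table's chromosome lengths for 19 autosomes. Mok was matched through its older symbol. Python 3.11.15, numpy 2.4.6, scipy 1.17.1 and pandas 2.3.3 were used. Alternatives varied the measure, reference, detection minimum, square, prominence and libraries. The sequence before the start of Rtl1 is not reported here.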

Additional observations from a re-analysis of the deposited data

Results flagged for a closer look

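In the PCR cycles experiment, 1 of the 4 libraries amplified for 20 cycles had 42.9% of the domain's windows positive, while the other 3 had 0%. That library lay apart from the rest of its group by Dixon's test. With 3 libraries at 0% any other value stands apart by that test, and 111 of all 249 libraries were at 0%, so it says nothing about that library.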

How the results depend on the processing

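Over the alternatives outside the protocol contrasts, 12 values changed sign, the number of minima fell in some, and no tested value crossed the threshold. Detection kept its direction in all 15 (0.92 to 3.93 percentage points). The linkage difference of -0.0093 in D′ turned to 0.0027 without the eosin test. Measured on another scale, as co-segregation frequency, which is not corrected for how often windows are detected, it was 0.015 ± 0.013. As the log2 ratio of co-segregation to that expected from coverage it was -0.123 ± 0.080. No adjusted p of the jackknife normal test over its alternatives was under 0.391. The edge before Dlk1 (-0.013) turned to 0.016 with squares of 15 windows, 0.016 with 20, and 0.0035 without the cresyl violet experiment. The edge after Dio3 (0.0039) turned to -0.017 with squares of 15, -0.011 with 20, -0.011 without the full collection, -0.016 without the amplification kit, -0.0015 without the cresyl violet, -0.0048 without the early freezing and -0.021 without the freezing after incubation experiment. The 5 minima fell to 2 with squares of 15 or 20 windows or a prominence of 1 SD, and to 4 without the full collection. The cause was not tested. The contrasts gave 0 calls in all 19 alternatives run, with 0 to 0 on leaving out in turn each library of the PCR cycles groups and of 1 µl proteinase K. The latter says nothing about stability, since the contrasts so reduced could not pass the adjustment and the others were the same. No paired analysis was possible because replicate numbers only name libraries. Read depth is unknown, the alleles are not separated, and the number of libraries limits precision: the 95% interval of the domain's linkage is wider than the range of the middle 80% of blocks.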
